A study of Homo sapiens with 6 samples.

Results

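The tissue kallikreins and kallikrein-related peptidases are secreted serine proteases whose genes lie side by side in 1 cluster on human chromosome 19. The 10 genes KLK1, KLK2, KLK3, KLK4, KLK5, KLK6, KLK10, KLK11, KLK13 and KLK15 were taken from the deposited tables by gene name, out of 42887 gene symbols kept. All 10 were found, each as a single entry. They were followed in 3 castration-sensitive prostate cancer lines, LnCaP, VCaP and LAPC4, and in the castration-resistant line paired with each by name, LnCaP-abl, VCaP-CR and LAPC4-CR. LnCaP and LAPC4 were kept in RPMI medium and VCaP in DMEM, all with 10% fetal bovine serum. The 3 resistant lines were kept in RPMI with 10% charcoal-stripped serum, from which most steroids have been removed, and the B27 supplement. No other treatment, knockdown or transgene is given for any of the 6 lines. Medium and state therefore changed together in every pair and cannot be told apart. The base medium itself differed within the VCaP pair alone. A contrast of this pair with the others cannot be told apart from that difference. Values of a pair are given with the sensitive line first. Each line had 1 library of total RNA, so a difference within a pair has no replicate check.

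Kallikreins are made as inactive zymogens, and several of them activate one another by cleavage. In the prostate, luminal epithelial cells secrete KLK3, known clinically as prostate-specific antigen, together with KLK2 and KLK4. Transcription of KLK3 and KLK2 is known to respond to androgens, through elements in their promoters and in an upstream enhancer. Other members are better known from skin, brain and glands.

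The promoters of the 3 members with high levels are shown because that of KLK3 holds a known androgen-responsive element, with which the other two can be compared. RefSeq start sites on build GRCh38.p14 matched 9 of the 10 members, at 14 starts, and KLK1 did not match. Each sequence holds the 250 bases before a start, 5′ to 3′ on the gene's own strand. Capitals mark a match to the letters GAACANNNAGTGCT. The KLK3 window is chr19:50854665-50854914 on the + strand, and the KLK2 window is chr19:50873189-50873438 on the + strand. KLK4 has 2 listed starts, and the window of the more upstream one is chr19:50911396-50911645 on the - strand.
KLK3: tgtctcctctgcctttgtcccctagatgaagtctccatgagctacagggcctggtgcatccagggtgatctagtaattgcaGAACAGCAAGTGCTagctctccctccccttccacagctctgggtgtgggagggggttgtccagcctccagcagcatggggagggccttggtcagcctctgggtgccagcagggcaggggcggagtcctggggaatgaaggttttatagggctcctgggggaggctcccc
KLK2: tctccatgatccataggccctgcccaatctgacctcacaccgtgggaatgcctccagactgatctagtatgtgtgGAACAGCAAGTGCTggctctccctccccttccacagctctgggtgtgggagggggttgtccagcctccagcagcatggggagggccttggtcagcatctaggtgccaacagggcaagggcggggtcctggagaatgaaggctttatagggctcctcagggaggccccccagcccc
KLK4: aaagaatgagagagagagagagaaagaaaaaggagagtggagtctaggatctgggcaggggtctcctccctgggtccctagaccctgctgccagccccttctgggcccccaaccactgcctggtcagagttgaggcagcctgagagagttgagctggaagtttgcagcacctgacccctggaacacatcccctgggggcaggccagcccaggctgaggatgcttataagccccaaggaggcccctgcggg

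The letters GAACANNNAGTGCT were chosen after both promoters had been seen, and were searched on both strands. They were found in the KLK3 window, beginning 169 bases before the start, and in the KLK2 window, 175 bases before it. No window of the other 7 matched members held them. Among all 34943 RefSeq windows of 250 bases, 14 held them, or 0.0401%. With 1 more base on its 5′ side the element reads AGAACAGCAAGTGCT in KLK3 and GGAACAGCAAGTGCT in KLK2. These 15 bases differ at 1 position, A1G, counted from 1 at the 5′ base of the KLK3 element. The half-site AGAACA, which overlaps that element, was found in KLK3 and in no other matched member, against 12.4% of all windows. The palindrome GAACANNNTGTTC was found in none of the matched members and in 0.0229% of all windows. The letters TATAAA were found in KLK3, 28 bases before the start, in KLK2, 34 bases before it, and in 1 of the 2 KLK15 windows, 30 bases before it, against 10.8% of all windows. In KLK3 and KLK2 this match is on the opposite strand. Over their whole length the KLK3 and KLK2 windows were identical at 79.2% of alignment columns (205 of 259). KLK3 against the windows of the other matched members gave 44.6% to 50%. A match in a window is a description of letters, and no binding was measured here.

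The cluster spans 265 kb in the deposited coordinates, which per the submitters' processing notes are on build hg18, at chromosome 19, bases 56014216 to 56279314. The tables place 16 kallikrein entries there, in the order KLK1, KLK15, KLK3, KLK2, KLKP1, KLK4, KLK5, KLK6, KLK7, KLK8, KLK9, KLK10, KLK11, KLK12, KLK13 and KLK14. KLK3 (ENSG00000142515) lies at bases 56049983 to 56055832 and KLK2 (ENSG00000167751) at bases 56068501 to 56075634. KLK4 (ENSG00000167749) lies at bases 56101420 to 56105806 and KLK15 (ENSG00000174562) at bases 56020357 to 56026591. The loci of KLK8 and KLK9 overlap, so their counts are uncertain.

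Total counts per library ran from 8661337 to 22433655, with more counts in the resistant member of every pair. All 9 luminal epithelial markers passed the level filter, with a summed level of 297 to 467 scaled FPKM in the sensitive lines and 343 to 556 in the resistant ones. Single markers differed more than the sum, with 2 of the 9 at least 2-fold lower in LnCaP-abl than in LnCaP, 0 for the VCaP pair and 3 for the LAPC4 pair. The 2 were SLC45A3 and TMPRSS2, and the 3 were these and HOXB13, TMPRSS2 being named after its values were seen. Each pair also had 1 marker at least 2-fold higher. It was CDH1 for LnCaP-abl (56.1 against 116), FOLH1 for VCaP-CR (11.7 against 24.9) and KRT19 for LAPC4-CR (32.5 against 136). KRT19 was likewise named after its values were seen. Of all genes past the filter, 6.19%, 2.03% and 5.28% were that much lower, ordered LnCaP, VCaP, LAPC4. The shares that much higher were 6.23%, 2.37% and 5.22%. TMPRSS2, a membrane protease, was at 36.4 against 9.73 for the LnCaP pair, 14.2 against 19.1 for the VCaP pair and 56.9 against 0.638 for the LAPC4 pair. Markers of leukocytes summed to at most 3.24 scaled FPKM and those of endothelium to at most 2.31, with none of the 9 past the filter. Of 7 fibroblast markers 1 passed, LUM, which stood at 50.2 in VCaP-CR and at most 3.94 elsewhere. Basal markers summed to 7.60 to 16.5 in the sensitive and 11.8 to 44.5 in the resistant lines. The basal markers ITGA6 and ITGB4 were at 25.01 and 14.7 in LAPC4-CR and at most 7.26 and 7.33 elsewhere. Both were higher in the resistant line of every pair. Neuroendocrine markers summed to 7.21 to 18.6 in the sensitive and 7.66 to 54.2 in the resistant lines. Of these, CHGA and SCG3 were at 21.6 and 15.98 in VCaP-CR and at most 2.37 and 4.69 elsewhere. ENO2 was at 3.63 against 11.98 for the LnCaP pair, 3.46 against 2.81 for the VCaP pair and 3.77 against 0.902 for the LAPC4 pair. The part of these markers in the kallikrein values was not tested. ERG, which a gene fusion drives in VCaP, was at 16.9 and 5.46 in its VCaP pair and at most 0.186 in the other 4 lines.

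KLK3 was the member with the largest difference between the states. Its counts were 12512 against 17 for the LnCaP pair, 7093 against 680 for the VCaP pair and 3096 against 111 for the LAPC4 pair. Scaled FPKM, which is FPKM divided by a factor that puts the 6 libraries on 1 scale, was 610 and 0.649 for the LnCaP pair, 327 and 19.1 for the VCaP pair, and 108 and 2.02 for the LAPC4 pair. Every resistant library lay below every sensitive one, as for 3.22% of the 16231 genes whose mean reached 1 scaled FPKM. On the scaled FPKM, KLK3 was 940-fold lower in LnCaP-abl than in LnCaP (95% counting interval 587 to 1614). It was 17.1-fold lower in VCaP-CR than in VCaP (15.8 to 18.5) and 53.7-fold lower in LAPC4-CR than in LAPC4 (44.5 to 65.5). These intervals do not overlap, so the pairs differed in the size of the difference beyond counting error, which is all these exact intervals cover. In bulk RNA, fewer cells with the transcript and less transcript per cell cannot be told apart.

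KLK3 was the 20th most abundant of 19940 protein-coding genes in LnCaP and stood at rank 11684 in LnCaP-abl. VCaP had it at rank 82 and VCaP-CR at rank 1712, LAPC4 at rank 257 and LAPC4-CR at rank 9016. Among the 16231 tested genes, those whose mean reached 1 scaled FPKM, the KLK3 difference, ordered from the most lowered gene, ranked 1 for the LnCaP pair, 5 for the VCaP pair and 8 for the LAPC4 pair. On log2(scaled FPKM + 1) the 3 differences averaged -5.91 ± 2.34 (SD, n = 3 pairs). An exact two-sided sign-flip permutation test over the pairs gave p = 0.25, the smallest value that 3 pairs allow.

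KLK2, a trypsin-like protease that can activate the KLK3 zymogen, separated the VCaP pair from the other two. Its counts were 1572 against 22 for the LnCaP pair, 35222 against 28911 for the VCaP pair and 1832 against 92 for the LAPC4 pair. Scaled FPKM was 59.1 and 0.648, 1254 and 628, and 49.4 and 1.29. VCaP-CR held more KLK2 than LnCaP or LAPC4, so the states overlapped. Within pairs the level was 91.3-fold lower in LnCaP-abl (60.1 to 146), 1.998-fold lower in VCaP-CR (1.97 to 2.03) and 38.4-fold lower in LAPC4-CR (31.1 to 47.8). In VCaP-CR, KLK2 was still the 31st most abundant protein-coding gene, against the 18th in VCaP. LnCaP had it at rank 422 and LnCaP-abl at 11689, while LAPC4 had it at 620 and LAPC4-CR at 10001.

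KLK4, a protease also known for its part in enamel formation, had the same arrangement at lower levels. Its counts were 281 against 16 for the LnCaP pair, 399 against 490 for the VCaP pair and 441 against 30 for the LAPC4 pair. Scaled FPKM was 22.5 and 1.00, 30.3 and 22.7, and 25.4 and 0.895. The 3 sensitive lines were close to each other, and VCaP-CR stood within 1 scaled FPKM of LnCaP. KLK4 was 22.4-fold lower in LnCaP-abl (13.6 to 39.8), 1.34-fold lower in VCaP-CR (1.17 to 1.53) and 28.3-fold lower in LAPC4-CR (19.6 to 42.5).

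**Figure D1:**
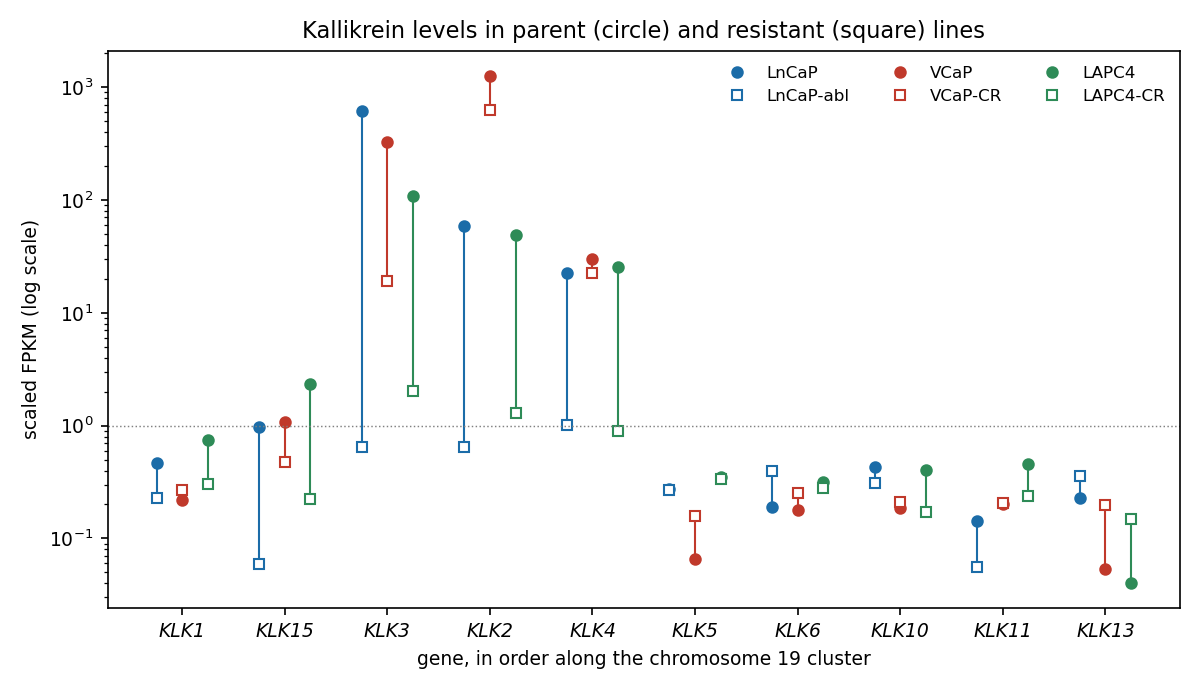
Level of each of the 10 members in scaled FPKM (log axis), in order along the cluster. Filled circles are the sensitive lines, open squares the resistant ones, each 1 library, and a line joins each pair. KLK3, KLK2 and KLK4 stand above 20 in every sensitive line, and KLK2 stays at 628 in VCaP-CR. The dotted line marks 1 scaled FPKM.

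In the edgeR quasi-likelihood test over the 3 pairs, with parental line as a block, KLK3, KLK2 and KLK4 were the 3 members that passed the level filter. Their log2 changes were -6.23 (SE 1.17), -4.40 (SE 1.19) and -3.28 (SE 0.99), with unadjusted edgeR p of 0.0013, 0.00846 and 0.0139. After Benjamini-Hochberg adjustment over all 16231 genes the edgeR p was 0.593 for each, so 0 members were called at 5%. edgeR called 0 of the 16231 genes lower (0%) and 0 higher. At an unadjusted p under 0.05, edgeR had all 3 members lower, against 548 genes or 3.38% of all tested. DESeq2 called all 3 lower (adjusted p 0.000586 for KLK3, 0.0381 for KLK2 and 0.00137 for KLK4), against 0.339% of all genes, and limma called 0. Over the 10 alternative fits adjusted p ran from 1.51e-05 to 1.00 for KLK3, from 0.00229 to 1.00 for KLK2 and from 0.00137 to 1.00 for KLK4, with all 3 lower in each.

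Within edgeR, the call also changed with the pair left out. Without the VCaP pair, edgeR called all 3 members lower (adjusted p 0.0141 for KLK3, 0.00289 for KLK2 and 0.0115 for KLK4), against 0.123% of all genes. The log2 changes were then -7.66, -5.82 and -4.63. Without the LnCaP pair, edgeR called KLK3 alone (log2 change -4.89, adjusted p 0.0229), against 0.0308% of all genes. Without the LAPC4 pair, edgeR called none of the 3, and KLK3 had an adjusted p of 0.193. With parental line as a block, the edgeR p-values rest on the spread of the resistant-minus-sensitive difference between pairs. For each gene edgeR draws that spread toward a trend shared by all genes in the fit. The p-values do not measure spread within a line, since no line was sampled more than once.

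Counted by size within pairs, all 3 tested members were at least 2-fold lower on log2(scaled FPKM + 1) in the LnCaP pair, against 6.19% of all tested genes. All 3 were also at least 2-fold lower in the LAPC4 pair, against 5.28%. In the VCaP pair KLK3 was the 1 member past 2-fold, against 2.03%. KLK2 lay just outside that limit, with a log2 difference of -0.997, and KLK4 was at -0.40. KLK3 was 1 of 16 genes at least 2-fold lower in all 3 pairs, or 0.0986% of those tested. All 3 were lower in every pair, as were 16.7% of all tested genes. The median difference of all tested genes was -0.01 in the LnCaP and VCaP pairs and -0.02 in the LAPC4 pair.

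**Figure D2:**
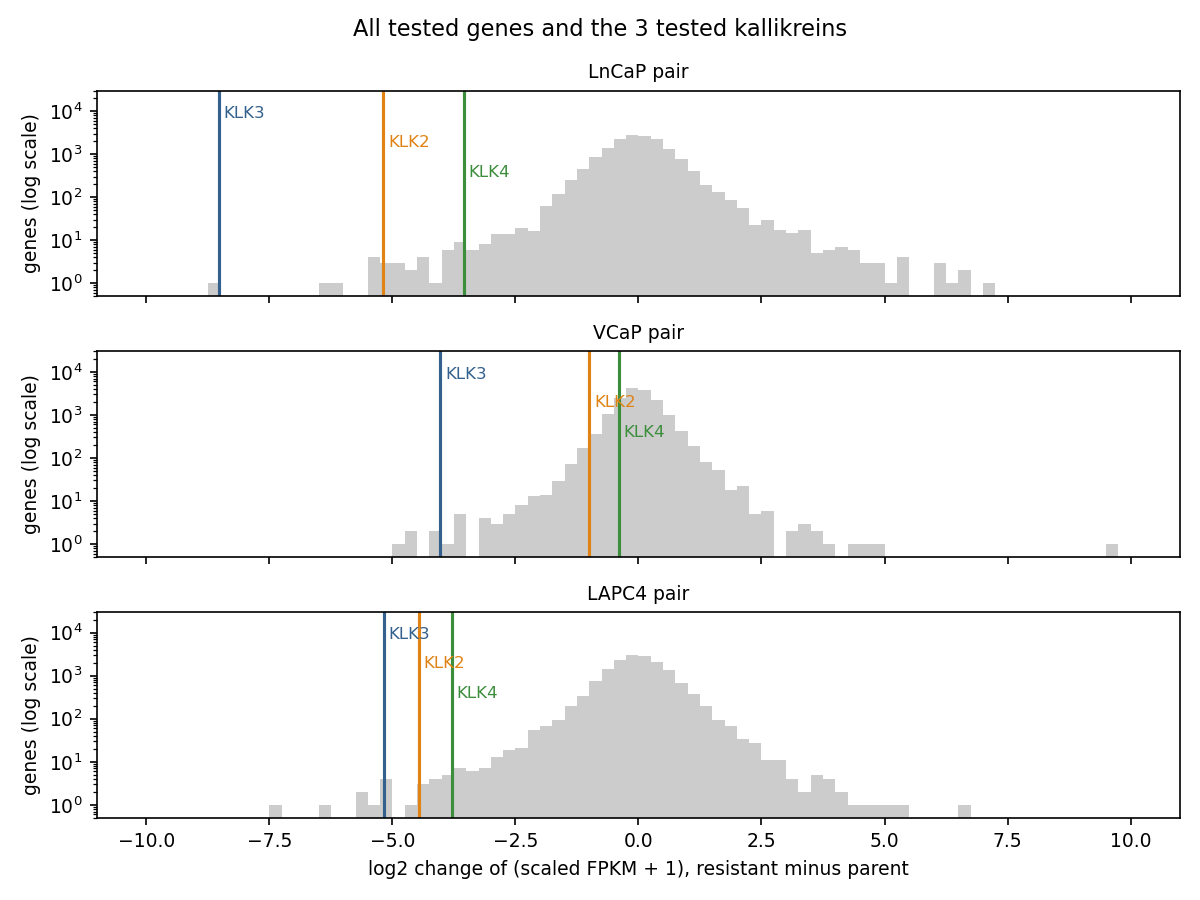
Histograms of the log2 difference of (scaled FPKM + 1), resistant minus sensitive, over the 16231 tested genes in each pair (gene counts on a log axis). Vertical lines mark KLK3, KLK2 and KLK4. All 3 lie in the lower tail in the LnCaP and LAPC4 pairs, and in the VCaP pair KLK3 lies at -4.03 while KLK4 lies at -0.40.

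The lines also differed in the mixture of kallikrein transcripts. The 10 members summed to 695 scaled FPKM in LnCaP, 1614 in VCaP and 188 in LAPC4. They summed to 3.97 in LnCaP-abl, 671 in VCaP-CR and 5.90 in LAPC4-CR. KLK3 made up 87.9% of this sum in LnCaP and 57.7% in LAPC4, but 20.3% in VCaP, where KLK2 made up 77.7%. In VCaP-CR, KLK2 reached 93.5% and KLK3 2.85%.

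Per length, KLK3 stood 10.3 times as high as KLK2 in LnCaP (95% counting interval 9.79 to 10.9) and 2.19 times as high in LAPC4 (2.07 to 2.32). In VCaP the ratio was 0.261 (0.255 to 0.268). In the resistant lines it was 1.00 in LnCaP-abl (0.500 to 1.98), 0.0305 in VCaP-CR (0.0282 to 0.0329) and 1.56 in LAPC4-CR (1.18 to 2.09). The ratio was lower in the resistant library of all 3 pairs, and the counting intervals within the LnCaP pair and within the VCaP pair did not overlap. In the LAPC4 pair the upper bound of the resistant line, 2.09, passed the lower bound of the sensitive one, 2.07. KLK3 and KLK2 are close copies, and of the 25-base windows in annotated KLK3 transcripts 2.32% also occur in KLK2, a share of 0.215% at 50 bases. Of the KLK2 windows 1.70% also occur in KLK3, and 0.159% at 50 bases. VCaP-CR had 28911 counts of KLK2 against 680 of KLK3. Whether KLK2 reads entered the KLK3 count, and so its fold difference and this ratio, was not tested. KLK2, KLK3 and KLK4 together took 0.166% of all counts in LnCaP and 0.000505% in LnCaP-abl. VCaP gave 0.370% and VCaP-CR 0.167%, and LAPC4 gave 0.0433% and LAPC4-CR 0.00104%.

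**Figure D3:**
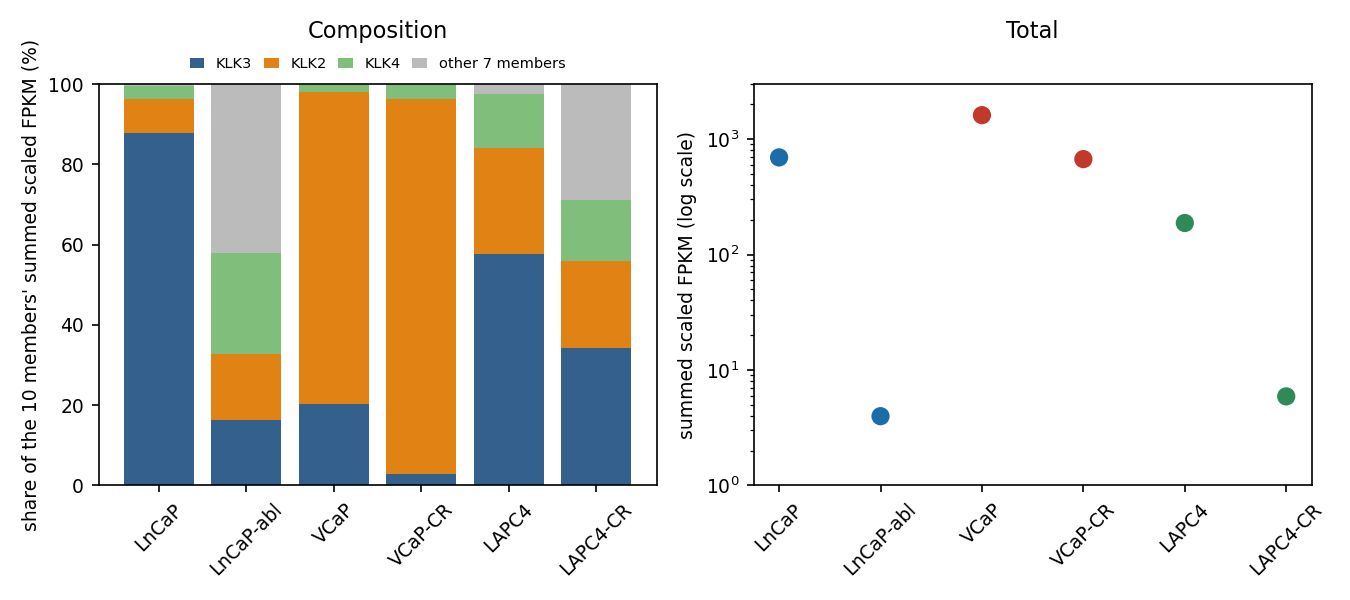
Left, the share of KLK3, KLK2, KLK4 and the other 7 members in the summed scaled FPKM of the 10 members in each library (%). Right, points give that sum in scaled FPKM on a log axis, with colours by pair. KLK3 leads in LnCaP and LAPC4, KLK2 leads in VCaP and VCaP-CR, and the sums of LnCaP-abl and LAPC4-CR are 3.97 and 5.90.

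KLK15, which lies next to KLK3 on the side of KLK1, was the other member with a lower level in each resistant line. Its counts were 13 against 1 for the LnCaP pair, 15 against 11 for the VCaP pair and 43 against 8 for the LAPC4 pair. Scaled FPKM was 0.982 and 0.0591, 1.07 and 0.480, and 2.33 and 0.225. The states did not overlap, against 3.22% of the tested genes, to which KLK15 does not belong. The 95% counting interval of the ratio lay below 1 in the LnCaP and LAPC4 pairs and included 1 in the VCaP pair. Its mean of 0.858 scaled FPKM missed the level filter. Without that filter edgeR gave it a log2 change of -2.39 with an adjusted p of 0.0221, against 0.139% of 41666 genes called lower.

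The remaining 6 members, KLK1, KLK5, KLK6, KLK10, KLK11 and KLK13, stayed under 1 scaled FPKM in all 6 libraries. KLK1 is the tissue kallikrein that releases kinins, KLK5 acts in the shedding of skin, and KLK6 is abundant in brain. Their counts ran from 1 to 18 per library and their levels from 0.0407 to 0.752 scaled FPKM, with a median of 0.233. The 9 leukocyte and endothelial markers, genes of cell types that these lines are not, had a median of 0.288. Over all libraries they ran from 0 to 1.99. All values of the 6 members lay within that pooled range. In single libraries some members fell under the lowest marker, as KLK13 in VCaP at 0.0537 against 0.132 for PTPRC. Of the 19940 protein-coding genes, 7047 or 35.3% also stayed under 1 in all libraries, against 60% of the members.

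Within pairs, 16 of the 18 counting intervals of these 6 genes included a ratio of 1, 2 lay below it and 0 above it. The 2 were KLK1 in the LAPC4 pair, with 18 and 14 counts, and KLK10 in the same pair, with 17 and 14 counts in libraries of different depth. Among protein-coding genes under the level filter that had a count, 13.7% had an interval below 1 for the LAPC4 pair, 16.6% for the LnCaP pair and 6.68% for the VCaP pair. The shares with an interval above 1 were 5.24%, 4.58% and 3.98% for the same 3 pairs. The 6 genes together gave 34 counts against 39 for the LnCaP pair, 18 against 41 for the VCaP pair and 59 against 69 for the LAPC4 pair. In scaled FPKM, which takes the deeper resistant libraries into account, their sums were 1.73 and 1.61, 0.907 and 1.29, and 2.32 and 1.48, higher in the resistant line of the VCaP pair alone. KLK13 was the 1 member of the 6 with a higher level in the resistant line of every pair. It had 4 and 8, 1 and 6, and 1 and 7 counts, and all 3 of its intervals included 1.

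Of the 6 other kallikrein entries of the cluster, 5 also stayed under 1 scaled FPKM. KLK7, KLK8, KLK9, KLK12 and KLK14 ran from 0 to 0.797 scaled FPKM, with a median of 0.223, and 14 of their 15 intervals included 1. The pseudogene KLKP1, whose entry is 135 bases long, had 3 counts in LnCaP, 6 in LAPC4 and 0 in the other 4 libraries. Its short length puts these few counts at 2.40 and 3.44 scaled FPKM. Along the chromosome, the members with counts of 100 or more in a sensitive line were 3 successive protein-coding genes, KLK3, KLK2 and KLK4. KLK15 stood on one side of them at a low level, and KLK5 on the other at 1 to 13 counts.

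**Figure D4:**
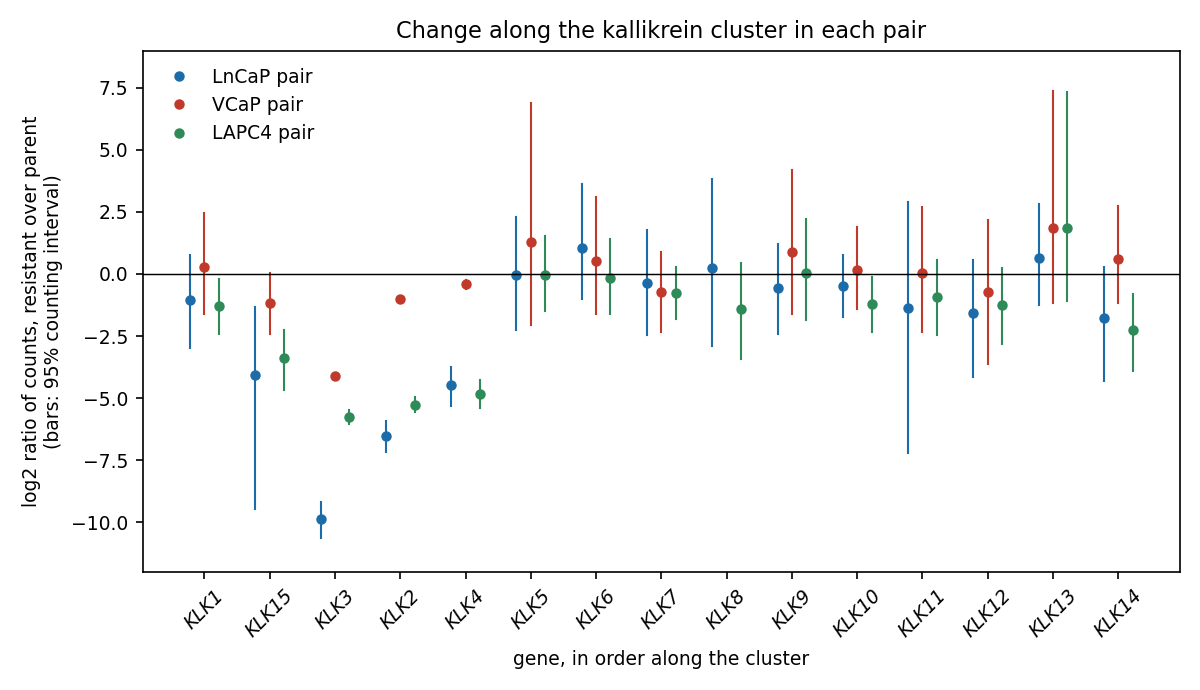
Log2 ratio of length- and library-scaled counts, resistant over sensitive, for 15 kallikrein genes in order along the cluster, with 95% counting intervals (1 library per line). KLK3 is the lowest of the 15 in all 3 pairs, KLK15 to KLK4 lie below 0, and from KLK5 onward most intervals include 0. A gene with 0 counts in a library has no point, as KLK8 in the VCaP pair.

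Genes flanking the cluster were examined to 200 kb on each side, 14 genes in all, and 1 pseudogene inside it. Of these 15, 6 passed the level filter. C19orf48, which ends 14430 bases before KLK1, was at 137 against 33.9 for the LnCaP pair, 385 against 259 for the VCaP pair and 90.3 against 25.2 for the LAPC4 pair scaled FPKM. It was lower in each resistant line, by -1.98, -0.57 and -1.80 on the log2 scale, and edgeR gave an adjusted p of 0.593. Small nucleolar RNA genes lie inside it, and whether their reads entered its count was not tested. AC010325.1, 273 bases from KLK1, had 1 to 10 counts.

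On the far side, CTU1 was at 2.56 against 1.73 for the LnCaP pair, 4.12 against 1.80 for the VCaP pair and 3.79 against 1.98 for the LAPC4 pair scaled FPKM, with an edgeR adjusted p of 0.600. The next gene, SIGLEC9, had 1 to 7 counts. Of the 6 tested neighbours, C19orf48 was at least 2-fold lower in the LnCaP and LAPC4 pairs, and none was in the VCaP pair. GPR32 was at least 2-fold higher in the LAPC4 pair, and was named after its values were seen.

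Across the 6 libraries, log2 levels of KLK2 and KLK4 had a Pearson r of 0.903 and those of KLK3 and KLK4 an r of 0.886. The value was 0.720 for KLK3 and KLK2, 0.778 for KLK15 and KLK3, 0.784 for KLK15 and KLK4, and 0.516 for KLK15 and KLK2. Spearman rho, on ranks, was 0.6 for KLK3 and KLK4 and for KLK15 and KLK2. It was highest, 0.829, for KLK15 and KLK4. These describe 6 libraries that share 3 lines and 2 states. The 5 tested genes outside the cluster most like KLK3 by Pearson r over the 6 libraries were CTB-89H12.1, AC092296.1, RP11-84O12.3, GATAD1 and AC006465.4, with r from 0.985 to 0.995. For KLK2 they were AC005790.2, RPL4, RP11-115L11.1, NDUFC2 and RPS7P11, with r from 0.993 to 0.996. Their pattern was alike and its size was not, since RPL4 differed by -0.77, 0.01 and -0.62 on the log2 scale in the LnCaP, VCaP and LAPC4 pairs.

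Of 15 factors described at the KLK3 and KLK2 regulatory regions, all passed the level filter, edgeR called 0, and at an unadjusted p under 0.05 it had 4 higher and 0 lower. The 4 were the coregulators NCOA2, NCOA3, NCOR1 and CREBBP, the last 3 named after their values were seen. The background at that unadjusted p was 4.49% higher and 3.38% lower. FOXA1, a pioneer factor of luminal cells, lay between 67.7 and 137 scaled FPKM in all 6 libraries. SPDEF, an ETS factor of luminal cells, lay between 24.9 and 85.0. HOXB13, a homeobox factor of the prostate, lay between 31.3 and 65.8 in 5 libraries and at 1.60 in LAPC4-CR. NCOA2 was at 7.97 against 39.2 for the LnCaP pair, 16.2 against 37.5 for the VCaP pair and 7.17 against 13.1 for the LAPC4 pair, with an edgeR adjusted p of 0.593. It was the higher in the resistant line of each pair. Of the 15, 0, 1 and 1 were at least 2-fold lower and 4, 1 and 2 at least 2-fold higher in the LnCaP, VCaP and LAPC4 pairs, where 6.23%, 2.37% and 5.22% of all genes were that much higher. Their median difference was 0.19, 0.00 and 0.67 in the same order.

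Among 10 genes of other secreted or luminal prostate proteins, 8 passed the filter and edgeR called 0. At an unadjusted p under 0.05 edgeR had 5 lower, against 3.38% of all tested genes, and 0 higher. The 5 were CRISP3, SLC45A3, AZGP1, NPY and PIP, the last 3 named after their values were seen. NPY passed the filter through the VCaP pair alone, with 775 and 121 counts there and at most 5 elsewhere. PIP passed it through the LAPC4 pair alone, with 173 and 53 counts there and at most 4 elsewhere. In the LnCaP, VCaP and LAPC4 pairs 2, 3 and 5 of the 8 were at least 2-fold lower, against 6.19%, 2.03% and 5.28% of all tested genes. CRISP3, a secreted cysteine-rich protein, was at 1.59 against 0.564 for the LnCaP pair, 516 against 18.98 for the VCaP pair and 378 against 9.34 for the LAPC4 pair scaled FPKM. ACPP, prostatic acid phosphatase, was at 3.99 against 63.0 for the LnCaP pair, 503 against 181 for the VCaP pair and 3.45 against 2.51 for the LAPC4 pair. SLC45A3, the luminal protein prostein, was at 65.8 and 4.86, 55.0 and 67.6, and 28.9 and 3.83. CRISP3 was highest in VCaP and LAPC4 and lower in both of their partners, while SLC45A3 was not lower in VCaP-CR. The median difference of the 8 tested genes was -0.47 for LnCaP, -0.62 for VCaP and -1.93 for LAPC4.

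Of 16 inhibitor genes 3 passed the filter and edgeR had 0 of them at an unadjusted p under 0.05. By pair, LnCaP first, VCaP next and LAPC4 last, their median difference was -0.21, 0.15 and 0.17. SERPINB6, a serpin, lay between 7.56 and 22.4 scaled FPKM. SLPI, secretory leukocyte peptidase inhibitor, was at 10.3 against 8.09 for the LnCaP pair, 8.58 against 1.15 for the VCaP pair and 0.780 against 12.1 for the LAPC4 pair. SPINK1 was at 13.5 against 15.9 for the VCaP pair and at most 0.486 in the other lines, and SPINK5, the inhibitor of skin kallikreins, missed the filter.

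Of 26 substrate and receptor genes 10 passed the filter. edgeR had 1 of these 10 at an unadjusted p under 0.05, higher, against 4.49% of all tested genes, and called 0. The median difference of the 10 was -0.29, -0.03 and -0.25 in the same order. That gene was IGFBP3, an insulin-like growth factor carrier that KLK3 can cleave. It was at 2.39 against 247 for the LnCaP pair, 52.9 against 47.8 for the VCaP pair and 3.14 against 45.1 for the LAPC4 pair scaled FPKM, with an edgeR adjusted p of 0.619. IGFBP5, of the same family, was at 12.4 in LAPC4 and 362 in LAPC4-CR and at most 2.28 in the other 4 lines. APP lay between 24.0 and 93.5 and IGFBP2 between 10.7 and 50.9. The semenogelin genes SEMG1 and SEMG2, whose products KLK3 cleaves in semen, were at most 0.260 in all 6 libraries.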

How the data were processed

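RNA from 6 cell lines, 1 library each, was sequenced with the SOLiD Total RNA-Seq kit, per the labels' protocols. The authors deposited per line a table of 51698 genes with a count and an FPKM. HTSeq and build hg18 are named, without version, per the submitters' processing notes. No source used here gives the aligner, the read length or the use of strand. The count values are whole numbers, as deposited. The deposited FPKM equals the count over gene length and library total within 1.42%, with gene length in 5 of the 6 tables.

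Small RNA classes (8763 entries) were left out and entries sharing a symbol summed, which left 42887 symbols. FPKM was divided by a median-ratio factor per library (0.847 to 1.11, over 11600 genes). Differences are on log2(scaled FPKM + 1), which understates low genes. The 16231 genes whose mean reached 1 scaled FPKM were tested on counts with edgeR 4.0.16 in R 4.3.3 (quasi-likelihood, TMM, parental line as block). DESeq2 1.42.0 and limma 3.58.1 were alternatives. On simulated counts of these genes edgeR found 91 of the 100 genes given a 4-fold increase and 100 of the 100 given 16-fold. It called 4 others. The simulation gave every gene the same dispersion (0.121) and the same mean in all lines. Its increases were equal in every pair and were placed only in genes of higher count. It therefore does not measure how well changes that differ between pairs are found. The pairs come from the line names: deviations from the group means correlated at 0.464, 0.734 and 0.593 within pairs and at -0.478 to -0.059 between lines. Intervals are exact at 95% and cover counting error only.

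Named genes were all members, the other kallikreins, up to 4 per list by mean level, the nearest 2 protein-coding neighbours per side and the 5 most like KLK3 and KLK2. The members and lists were chosen with earlier results of these data known. Some genes of these lists are not reported here.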

Additional observations from a re-analysis of the deposited data

Results flagged for a closer look

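In 2 of the genes named beside the kallikreins, 2 pairs differed in opposite directions by at least 2-fold on log2(scaled FPKM + 1). SLPI was lower in VCaP-CR than in VCaP (-2.15) and higher in LAPC4-CR than in LAPC4 (2.88), a gap of -5.04. ACPP was higher in LnCaP-abl (3.68) and lower in VCaP-CR (-1.47), a gap of 5.15. Each pair has 1 library per state, so these differences between pairs were not tested.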

How the results depend on the processing

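KLK3, KLK2 and KLK4 were lower in all 10 alternative fits of each. KLK3 moved past the 5% threshold under DESeq2 (-6.30, adjusted p 0.000586) and without the filter on low values (-6.08, adjusted p 1.51e-05). KLK2 did so under the same 2 settings (-4.51, adjusted p 0.0381, and -4.22, adjusted p 0.00229). With 1 pair left out, the KLK3 change ran from -7.66 to -4.89 and that of KLK2 from -5.82 to -3.05. The members called lower were 3 under DESeq2, 4 without the filter, and 0 to 3 with 1 pair left out. Across all genes the calls were 55 lower and 82 higher under DESeq2, and 58 lower and 95 higher without the filter, against 0 and 0. Leaving out the LnCaP pair gave 5 lower and 0 higher, leaving out VCaP gave 20 and 13, and leaving out LAPC4 gave 1 and 3. Without the pairing of libraries (no replicate block) the KLK3 change was -5.56, that of KLK2 -1.09 and that of KLK4 -1.65, with 0 members called. The cause of these shifts was not tested. There were 192 within-pair values under 2 other scalings and 2 other pseudocounts. Of these, 13 shifted from the main value by at least the distance from the middle to the end of their log2 counting interval. 2 values near 0 changed sign, KLK5 (-0.013 to 0.0099 with FPKM as deposited) and KLK9 (0.0087 to -0.0026 with scaling over protein-coding genes), both in the LAPC4 pair. Keeping the small RNA classes, an alternative chosen after seeing the data, changed no call of a member. Depth limits the 6 low members, whose 1 to 18 counts leave wide intervals.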
